A study of Caenorhabditis elegans with 21 samples.

Results

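Bortezomib at 25 µM was compared with no treatment in whole wild-type C. elegans, using 6 of the 21 RNA-seq libraries of the series. The 3 treated libraries (replicates 3, 4 and 6) and the 3 control libraries (replicates 4, 6 and 7) were taken from their GEO labels, where a bortezomib title gives first the replicate and then the dose. All worms were wildtype N2, age-synchronized, raised at 20 °C with E. coli OP50 as food and harvested whole on day 1 of adulthood. Treated worms moved at the L4 stage to plates with 25 µM bortezomib and were harvested the following day; the control worms stayed untreated, and no plates with the drug's solvent alone were analysed here. The labels do not say whether replicates were separate cultures, so the p-values below measure a spread between libraries of the same group, which may be technical. Groups of 3 libraries given 10 µM bortezomib from L4, or rpn-6 RNAi plates from L3, serve as further references.

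The proteasome degrades proteins that carry ubiquitin chains. Its core particle holds the proteolytic sites in rings of alpha and beta subunits, and its regulatory particle binds, unfolds and feeds in substrates. Bortezomib is a boronic acid dipeptide that blocks the chymotrypsin-like site of the core. In C. elegans, loss of proteasome activity is known to activate the transcription factor SKN-1A, which drives proteasome subunit genes, and to switch on the intracellular pathogen response, a set of genes that microsporidia and Orsay virus also induce in the intestine.

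All levels are in FPKM, a fragment count scaled to transcript length and to library size, and a fold change is the difference of group means on the log2(FPKM + 1) scale with its standard error (SE), which understates the change of genes with low values. Genes with low values in the controls could pass the filter below through the groups in which they are high, so counts over the tested members of a list describe those members and support nothing beyond them. A gene was called at an adjusted p under 0.05 (limma, two-sided, Benjamini-Hochberg over the 17492 genes that reached 1 FPKM in 3 or more of the 21 libraries). The fit took all 21 libraries, so SE and p-values measure the spread within all 7 groups of the series. When the 2 groups were fitted by themselves, 9 named genes gained a call: col-19, gld-1, mab-3, pbs-2, rme-2, sip-1, sod-3, vit-2 and vit-6. In that fit 4 lost it: dpy-13, drh-1, irg-4 and png-1. Per-library values are listed in the order controls 4, 6 and 7, then treated libraries 3, 4 and 6.

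Transcript levels of many genes differed between treated and control worms. Of 17492 genes, 9333 (53.4%) were called, 7397 (42.3%) higher and 1936 (11.1%) lower in the treated worms. Counts for the gene lists below are to be read beside these shares. Leaving out any 1 of the 6 libraries other than control 7 left 7804 to 8392 calls. Called changes of at least 8-fold numbered 614 rises and 109 falls. A further measure without a test gave 8692 genes (49.7%) with every treated library above every control and 2347 (13.4%) with every treated library below. The largest rises included genes of the intracellular pathogen response and a lysozyme gene, and the largest falls included yolk protein, lysozyme and lectin genes.

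The balance of rises and falls depended on the scaling between libraries. The median log2 fold change of all genes was 0.40 in the FPKM as deposited, 0.07 after median-of-ratios scaling and -0.14 after quantile normalization, so small changes are read against these shifts. Median-of-ratios scaling gave 9524 calls (54.4%), 5065 (29%) higher and 4459 (25.5%) lower. Quantile normalization gave 8451 calls (48.3%), 3453 (19.7%) higher and 4998 (28.6%) lower. Both scalings kept the direction of the bortezomib-to-control changes called below, except where the same sentence gives another sign, but not every call. Where a named gene's call changed under a rescaling, the same paragraph gives the rescaled value or says that the call changed. List counts that changed by over 1.5 times are mostly given rescaled as well. Such counts are to be read beside the shares of all genes under the same scaling.

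Control 7 stood apart from the other controls. Across the 17492 genes on the log2 scale, its correlation with controls 4 and 6 was 0.936 and 0.939, against 0.986 between those 2, and it was nearer to the treated libraries (0.882 to 0.895) than they were (0.801 to 0.841). Among libraries of other groups control 7 was closest to 10 µM library 8 (0.951), above its mean of 0.938 with controls 4 and 6. Those 2 controls were also closest to that library (0.938 and 0.943), but below their own group means (0.961 and 0.963). Each 10 µM library was in turn closest to control 7 among libraries of other groups. Genes are not independent replicates, so these values are descriptions. The treated libraries correlated at 0.971 to 0.980 among themselves. Without control 7, 9883 genes (56.5%) were called, 7349 (42.0%) higher and 2534 (14.5%) lower; 6919 higher and 1777 lower calls were shared by both fits, and none was opposite. Collagen, sperm, early embryo and F-box B and C genes were among the lists in which control 7 lay farthest from the other controls, and their counts are given both ways below.

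Markers of adult tissues were present in all 6 libraries, apart from the germline marker pgl-1, listed at 0 in controls 4 and 6. The summed FPKM of 6 intestinal markers was 4896 to 5469 in the controls and 1089 to 1398 in the treated worms, with 2 markers called higher and 2 lower. That of 5 neuronal markers was 283.5 to 319 and 468 to 486, and that of 3 genes taken as pharynx markers was 40.4 to 92.3 and 129 to 155. Of these 3, only pqm-1 was called (14.3, 21.7 and 27.8 FPKM in the controls and 85.7, 87.5 and 94.2 FPKM in the treated libraries). The groups of myo-2 and ceh-22 overlapped, so the sum is not read as a change of the pharynx. The summed FPKM of 5 oocyte markers was 1040 to 1793 and 415 to 774, with no marker called. These 4 sums did not overlap between the groups, whereas those of 4 body muscle markers (1896 to 2927 and 1854 to 2268), 4 adult hypodermis markers (1873 to 2397 and 1924 to 2010.0), 5 germline markers (914 to 1117 and 897 to 917), 5 sperm markers (466 to 1321 and 1146 to 1285) and 5 early embryo markers (12.6 to 45.2 and 6.57 to 12.6) did. In the intestine, the carboxylesterase gene ges-1 fell (15.3, 16.4 and 19.6 to 1.74, 1.71 and 1.24 FPKM, log2 fold change -2.82 ± 0.21, adjusted p = 1.50e-08), while the transcription factor gene elt-2 rose (9.68, 9.32 and 14.6 to 30.1, 33.7 and 46.6 FPKM, log2 fold change 1.63 ± 0.22, adjusted p = 1.32e-05). The germline sums overlapped only through pgl-1, at 0 in controls 4 and 6 but 265 FPKM in control 7 and 209 to 230 FPKM in the treated libraries. Such zeros may be failed estimates. Among the other germline markers, gld-1 and glh-1 were lower and htp-3 higher in every treated library than in every control, and glp-1 overlapped. In whole-worm RNA, fewer cells of a type and less RNA per cell cannot be told apart. Of the 2 male markers, clec-207 was higher (0.942, 0.585 and 0.92 FPKM in the controls and 7.79, 8.69 and 7.42 FPKM in the treated libraries; log2 fold change 2.31 ± 0.53, adjusted p = 0.00188), and mab-3 was not called (log2 fold change 0.79 ± 0.62, adjusted p = 0.291). What part the tissue makeup of the worms had in the results below was not tested.

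**Figure D1:**
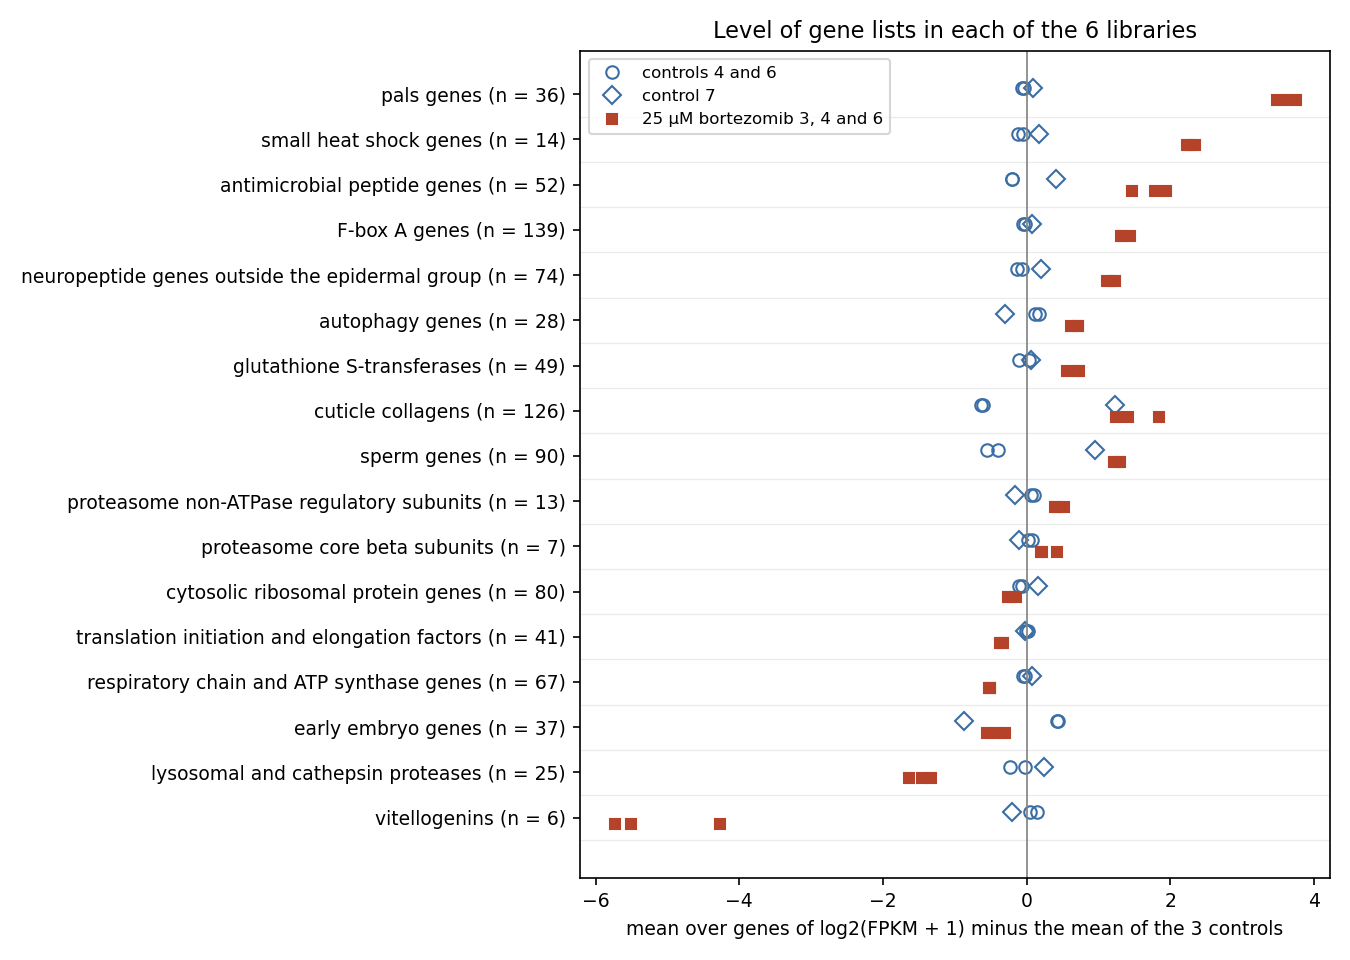
Mean level of 17 gene lists in each library, as log2(FPKM + 1) minus the mean of the 3 controls, averaged over the genes of a list (n in brackets, without abundant genes listed at 0 in any library). Circles are controls 4 and 6, diamonds control 7 and squares the 3 treated libraries; pals genes lie far above and vitellogenins far below all controls, while control 7 lies near the treated libraries for cuticle collagens and sperm genes.

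Genes of the drug's target complex were only modestly higher. Of 33 proteasome subunit genes, 20 were called higher, where 42.3% of all genes were, and none lower, with list medians of 0.22 for the 7 alpha, 0.31 for the 7 beta, 0.35 for the 6 ATPase and 0.40 for the 13 non-ATPase subunit genes, against 0.40 for all genes. After median-of-ratios scaling these medians turned negative (-0.22, -0.13, -0.09 and -0.04), against 0.07 for all genes. In that scaling 1 of the 33 genes was called higher, beside 29% of all genes, and 1 lower. Under quantile normalization the medians were 0.20, 0.29, 0.34 and 0.37, against -0.14 for all genes. There 17 of the 33 genes were called higher, beside 19.7% of all genes, and none lower. Without control 7, 13 were called, 1 alpha, 1 beta, 3 ATPase and 8 non-ATPase subunit genes; leaving out treated library 6 also left 1 alpha and 1 beta call, from 3 and 4.

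The 5 largest fold changes in the complex were those of regulatory subunit genes, rpn-6.2, rpt-6, rpn-10, rpn-8 and rpn-2. The base ATPase gene rpt-6 was at 183, 198 and 174 FPKM in the controls and 309, 303 and 339 FPKM in the treated libraries, with log2 fold change 0.77 ± 0.07, adjusted p = 3.54e-07. The ubiquitin receptor gene rpn-10 was at 192, 197 and 154 FPKM in the controls and 276, 275 and 299 FPKM in the treated libraries, with log2 fold change 0.65 ± 0.09, adjusted p = 3.17e-05. Its groups, like those of rpt-6, did not overlap. The lid subunit gene rpn-8 was at 267, 264 and 205 FPKM in the controls and 383, 367 and 392 FPKM in the treated libraries (log2 fold change 0.64 ± 0.10, adjusted p = 8.48e-05). For rpn-6.1, a lid subunit gene targeted in the RNAi group, the values were 168, 168 and 130.2 FPKM in the controls and 218, 221 and 210.1 FPKM in the treated libraries (log2 fold change 0.49 ± 0.14, adjusted p = 0.0066). Its paralogue rpn-6.2 had lower levels, 21.9, 24.1 and 30.6 FPKM in the controls and 46.9, 47.8 and 53.9 FPKM in the treated libraries, and log2 fold change 0.94 ± 0.24, adjusted p = 0.00371. After median-of-ratios scaling only rpt-6 among these genes kept its call, rpn-6.2 was not called after quantile normalization either (0.52, adjusted p = 0.0763), and the log2 fold change of rpn-6.1 was 0.05.

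The gene of the catalytic subunit that bortezomib binds, pbs-5, was at 238, 237 and 223 FPKM in the controls and 259, 276 and 311 FPKM in the treated libraries, with log2 fold change 0.27 ± 0.11, adjusted p = 0.0412. All 3 treated libraries exceeded the controls, but the call was lost on leaving out any of 5 libraries, control 7 among them (log2 fold change 0.24 ± 0.12, adjusted p = 0.0978), and median-of-ratios scaling gave -0.17. After quantile normalization pbs-5 was not called (0.23, adjusted p = 0.106). The other catalytic subunit genes, pbs-1 and pbs-2, were not called (0.05 ± 0.15, adjusted p = 0.796, and 0.24 ± 0.14, adjusted p = 0.152). The alpha subunit gene pas-3 rose from 443, 466 and 373 to 588, 547 and 673 FPKM (log2 fold change 0.50 ± 0.10, adjusted p = 8.17e-04; 0.06 and not called after median-of-ratios scaling), and pas-5 was listed at 0 in control 7 and in treated libraries 3 and 6 but at 394, 403 and 478 FPKM in the others, so no fold change is given.

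**Figure D2:**
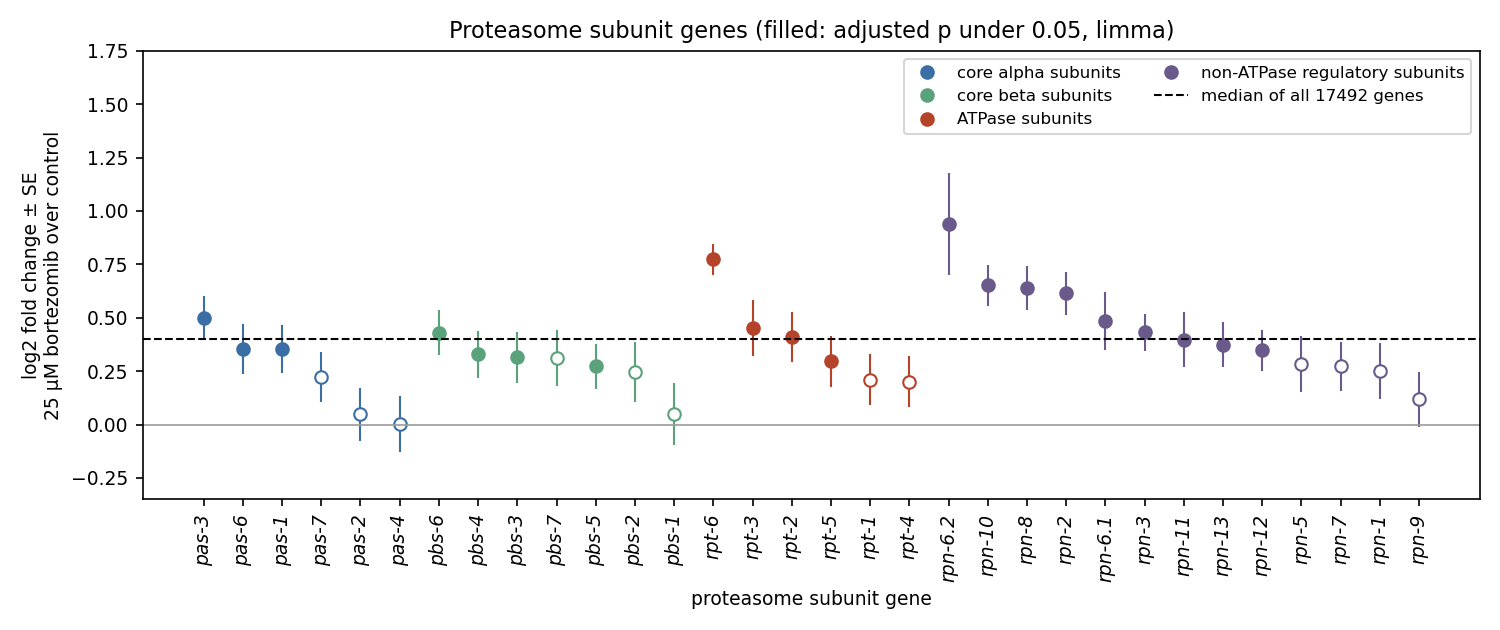
Log2 fold change of 32 proteasome subunit genes, 25 µM bortezomib over control (n = 3 libraries a group), with its standard error from the fit of all 21 libraries. pas-5, with values of 0, is left out. Filled points were called (adjusted p under 0.05, limma), and the dashed line is the median of all genes, 0.40. The median of the 33 subunit genes, pas-5 included, is 0.33, below that line.

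Of 17 genes that act on SKN-1A or extract proteins for degradation, 8 (47.1%, beside 42.3% of all genes) were called higher and none lower, with a median of 0.25 that became -0.18 after median-of-ratios scaling. The counts were 3 higher and 6 lower after median-of-ratios scaling and 6 and 3 after quantile normalization, and 7 and 2 without control 7. The WD40 repeat gene wdr-23, which encodes a substrate adaptor that promotes SKN-1 degradation, was at 53.6, 60.0 and 43.9 FPKM in the controls and 115, 114 and 104 FPKM in the treated libraries (log2 fold change 1.08 ± 0.10, adjusted p = 1.44e-07). The aspartic protease gene ddi-1, needed to cut SKN-1A into its active form, was at 95.2, 91.4 and 64.2 FPKM in the controls and 143, 139.5 and 137 FPKM in the treated libraries (log2 fold change 0.76 ± 0.17, adjusted p = 0.00157). Neither gene's groups overlapped. The glycanase gene png-1, which edits SKN-1A, had a small rise (log2 fold change 0.30 ± 0.09, adjusted p = 0.00829) that was -0.12 after median-of-ratios scaling and -0.30 after quantile normalization. The transcript of skn-1 itself, all isoforms together, was at 96.6, 95.1 and 80.7 FPKM in the controls and 112, 115 and 97.9 FPKM in the treated libraries and was not called (log2 fold change 0.25 ± 0.10, adjusted p = 0.0513). CDC-48 cofactor genes npl-4.1 and npl-4.2, near-identical copies whose split is uncertain, had log2 fold changes of 0.87 ± 0.12 and 0.81 ± 0.13. The segregase ATPase gene cdc-48.1 was not called (log2 fold change 0.07 ± 0.12, adjusted p = 0.645), and its paralogue cdc-48.2 was (log2 fold change 0.53 ± 0.09, adjusted p = 2.06e-04), though not after median-of-ratios scaling, nor were ddi-1 and npl-4.2.

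Ubiquitin system genes showed scattered changes. Of 42 ubiquitin, conjugation and ligation genes tested, 12 were called higher and 3 lower, and of 22 deubiquitinase and ubiquitin receptor genes 8 and 1; both medians (0.17 and 0.11) were below that of all genes and turned negative under either rescaling. The first list had 4 higher and 11 lower after median-of-ratios scaling and 8 and 5 after quantile normalization, and the second 3 higher and 8 lower after median-of-ratios scaling and 5 and 6 after quantile normalization. Cullin and SKP1-related genes were similar, 11 higher and 3 lower of 29, but 9 and 9 without control 7. Rescaled, they were 7 higher and 10 lower after median-of-ratios scaling and 7 and 8 after quantile normalization. The shares higher were 28.6%, 36.4% and 37.9% in the 3 lists, each below the 42.3% of all genes. The conjugating enzyme gene ubc-8 was at 14.4, 18.7 and 20.7 FPKM in the controls and 53.6, 50.9 and 46.8 FPKM in the treated libraries (log2 fold change 1.45 ± 0.13, adjusted p = 1.25e-07). Its relative ubc-23 was at 2.4, 2.55 and 2.95 FPKM in the controls and 10.7, 12.1 and 11.9 FPKM in the treated libraries (log2 fold change 1.79 ± 0.24, adjusted p = 1.19e-05). The polyubiquitin gene ubq-1 was at 439, 465 and 326 FPKM in the controls and 471, 443 and 435 FPKM in the treated libraries and was not called (log2 fold change 0.15 ± 0.13, adjusted p = 0.347), its groups overlapping. In the other direction, ubc-9, which encodes the enzyme that conjugates SUMO, fell from 348, 334 and 228 to 191, 161 and 146 FPKM (log2 fold change -0.85 ± 0.20, adjusted p = 0.00251). The deubiquitinase gene ubh-4, whose product binds the regulatory particle, was slightly lower (log2 fold change -0.24 ± 0.08, adjusted p = 0.0148; not called on leaving out control 4, control 6 or treated library 3), whereas ubh-1 rose (log2 fold change 0.93 ± 0.09, adjusted p = 3.21e-07; 0.50 after median-of-ratios scaling).

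Cytosolic chaperone genes split sharply. Of 14 small heat shock genes, 9 were called higher and none lower, with a median of 1.92, and the largest rises were in the hsp-16 genes, whose products bind unfolding proteins. The gene hsp-16.2 was at 3.82, 3.27 and 3.05 FPKM in the controls and 142, 148 and 173 FPKM in the treated libraries, with log2 fold change 5.14 ± 0.25, adjusted p = 1.14e-10. For hsp-16.41 the values were 2.83, 2.82 and 4.14 FPKM in the controls and 149, 172 and 189 FPKM in the treated libraries, with log2 fold change 5.34 ± 0.31, adjusted p = 1.00e-09. The groups of both genes lay far apart, with no control above 5 FPKM. Another 2 genes, hsp-17 and hsp-43, had smaller rises (log2 fold change 2.31 ± 0.32, adjusted p = 2.11e-05, and log2 fold change 1.52 ± 0.23, adjusted p = 4.54e-05). The symbols hsp-16.1 and hsp-16.48 each stand for 2 gene IDs of near-identical copies, so reads could be split between them; their log2 fold changes were 4.07 ± 0.22 and 3.90 ± 0.21, and 4.01 ± 0.24 and 4.03 ± 0.25. By contrast sip-1, hsp-25, hsp-12.1, hsp-12.2 and hsp-12.6 were not called, with log2 fold changes of -0.02 ± 0.48 (hsp-12.6) to 0.55 ± 0.25 (sip-1), although sip-1 was called after quantile normalization (0.84, adjusted p = 0.0106).

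Inducible HSP70 genes rose. For hsp-70 the values were 1.44, 3.58 and 5.5 FPKM in the controls and 27.6, 33.5 and 34.3 FPKM in the treated libraries, with log2 fold change 2.97 ± 0.35, adjusted p = 3.15e-06. F44E5.4 and F44E5.5, near-identical HSP70 genes, had log2 fold changes of 3.36 ± 0.35 and 3.35 ± 0.35; control 7 was the highest control for all 3 genes. The arsenite-inducible gene aip-1, whose product associates with the proteasome, was at 48.4, 53.7 and 38.9 FPKM in the controls and 108, 109 and 111 FPKM in the treated libraries (log2 fold change 1.21 ± 0.12, adjusted p = 5.09e-07). The constitutive HSP70 gene hsp-1 was at 1427, 1489 and 1645 FPKM in the controls and 1299, 1389 and 1437 FPKM in the treated libraries and was not called (log2 fold change -0.14 ± 0.11, adjusted p = 0.296), but was called lower after median-of-ratios scaling (-0.58, adjusted p = 0.00384). The HSP90 gene hsp-90, formerly daf-21, fell from 1416, 1453 and 1372 to 1158, 1136 and 1170.2 FPKM (log2 fold change -0.29 ± 0.08, adjusted p = 0.00464), and the HSP90 cochaperone gene daf-41 fell as well (log2 fold change -0.45 ± 0.11, adjusted p = 0.00283). Neither was called after quantile normalization (-0.08, adjusted p = 0.454, and -0.18, adjusted p = 0.248). The heat shock factor gene hsf-1 was at 55.7, 58.2 and 38.1 FPKM in the controls and 57.1, 53.1 and 54.6 FPKM in the treated libraries (log2 fold change 0.14 ± 0.17, adjusted p = 0.508), with overlapping groups. Over the 25 genes of the HSP70 and HSP90 machinery, 6 were called higher and 6 lower, 24% each, beside 42.3% and 11.1% of all genes. The lower calls numbered 2 or 3 on leaving out control 4, control 6 or treated library 4. Rescaled, the counts were 4 higher and 13 lower after median-of-ratios scaling and 5 and 5 after quantile normalization.

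Chaperonin and prefoldin genes fell in part. None of 14 was called higher and 8 were called lower (median -0.27; 13 lower after median-of-ratios scaling, and 5 without control 6 or treated library 3), against 11.1% lower among all genes. cct-4 had values of 0 and is not interpreted. The prefoldin subunit gene pfd-2 was at 174, 162 and 146 FPKM in the controls and 85.5, 89.3 and 78.5 FPKM in the treated libraries (log2 fold change -0.92 ± 0.12, adjusted p = 1.63e-05). The chaperonin subunit gene cct-8 fell from 229.7, 231 and 207.12 to 164, 172 and 162 FPKM (log2 fold change -0.42 ± 0.15, adjusted p = 0.0292), a call lost on leaving out any of 4 libraries, with adjusted p up to 0.0812.

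Stress genes of the mitochondria and the endoplasmic reticulum did not rise as groups. Of 20 mitochondrial stress genes, 3 were higher and 10 lower (median -0.27). After median-of-ratios scaling 1 was higher and 16 lower, and after quantile normalization 1 and 14. The matrix chaperonin gene hsp-60 was at 343, 354 and 412 FPKM in the controls and 96.3, 85.2 and 108 FPKM in the treated libraries, with log2 fold change -1.93 ± 0.14, adjusted p = 1.04e-08. The mitochondrial HSP70 gene hsp-6 fell from 327, 341 and 387 to 285, 281 and 260.2 FPKM (log2 fold change -0.35 ± 0.10, adjusted p = 0.00738), and no treated value of either gene reached the controls. The homeobox gene dve-1, an activator of the mitochondrial unfolded protein response, was higher (10.6, 9.88 and 13 FPKM in the controls and 26.3, 28.8 and 36.1 FPKM in the treated libraries; log2 fold change 1.36 ± 0.20, adjusted p = 3.67e-05). Among 25 genes of the endoplasmic reticulum, 6 were called higher and 8 lower. After median-of-ratios scaling 1 was higher and 16 lower, and after quantile normalization 4 and 11. The BiP gene hsp-4 was at 199.9, 209 and 182 FPKM in the controls and 250.05, 273 and 279 FPKM in the treated libraries (log2 fold change 0.44 ± 0.17, adjusted p = 0.0385, a call lost on leaving out any of 5 libraries, with adjusted p up to 0.0996; 0.00 after median-of-ratios scaling and not called after quantile normalization). The sensor kinase gene pek-1 rose to 25.7, 27 and 23.9 FPKM from 15.2, 16.2 and 12 (log2 fold change 0.79 ± 0.11, adjusted p = 2.49e-05), but was not called after quantile normalization (0.05, adjusted p = 0.783). The translocon subunit genes sec-61.A and sec-61.B had the largest falls of the list: sec-61.A was at 724, 736 and 855 FPKM in the controls and 257, 235.09 and 241 FPKM in the treated libraries (log2 fold change -1.65 ± 0.13, adjusted p = 3.69e-08), and sec-61.B had log2 fold change -1.52 ± 0.13, adjusted p = 1.27e-07.

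Genes of the intracellular pathogen response had the highest median rise of the 52 lists. The table holds 37 pals genes and 36 were tested, of which 35 were called higher and none lower, with a median log2 fold change of 4.04; without control 7 all 36 were called higher. The pals family is known for its induction by intracellular infection. pals-39 was at 0.168, 0.0811 and 0.218 FPKM in the controls and 119.5, 141 and 153 FPKM in the treated libraries, with log2 fold change 6.90 ± 0.56, adjusted p = 5.17e-08. For pals-3 the values were 0.221, 0.267 and 0.0719 FPKM in the controls and 84.1, 113 and 125 FPKM in the treated libraries, with log2 fold change 6.50 ± 0.20, adjusted p = 3.64e-13. For pals-14 they were 0.072, 0.0521 and 0.14 FPKM in the controls and 43.1, 51.9 and 69.1 FPKM in the treated libraries, with log2 fold change 5.65 ± 0.37, adjusted p = 4.42e-09. In these 3 genes each control was below 1 FPKM, and the groups did not overlap. The widely used reporter gene pals-5 was at 0.0775, 0.112 and 0 FPKM in the controls and 22.6, 26.2 and 34.2 FPKM in the treated libraries; control 7 was listed at 0, so no fold change is given. pals-22, which encodes a repressor of the response, was at 4.43, 4.16 and 4.61 FPKM in the controls and 15.8, 17 and 16.2 FPKM in the treated libraries (log2 fold change 1.68 ± 0.19, adjusted p = 2.89e-06), and was not called after quantile normalization (0.65, adjusted p = 0.0535). The 1 pals gene not called, pals-23, had log2 fold change 1.10 ± 0.46, adjusted p = 0.0547.

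Other genes of the response rose as well. The gene eol-1, which encodes a homologue of the decapping nuclease DXO, had the largest rise of a gene with a symbol: it was at 0.497, 0.66 and 0.242 FPKM in the controls and 234, 275 and 248 FPKM in the treated libraries, with log2 fold change 7.44 ± 0.22, adjusted p = 3.23e-13. The response's ubiquitin ligase is built from the cullin CUL-6, SKP1-related proteins, RCS-1 and F-box proteins. For cul-6 the values were 1.81, 2.13 and 2.97 FPKM in the controls and 17.2, 17.3 and 17.2 FPKM in the treated libraries (log2 fold change 2.48 ± 0.20, adjusted p = 4.85e-08). For the SKP1-related gene skr-5 they were 1.86, 1.35 and 3.95 FPKM in the controls and 68.5, 80.5 and 70.8 FPKM in the treated libraries (log2 fold change 4.53 ± 0.36, adjusted p = 3.57e-08). Neither gene's groups overlapped. The RING protein gene rcs-1 (log2 fold change 2.17 ± 0.34, adjusted p = 7.45e-05) and skr-3 (log2 fold change 1.77 ± 0.21, adjusted p = 4.11e-06) rose less, with control 7 highest among the controls. The F-box gene fbxa-158 rose from 0.0652, 0.0472 and 0.127 to 57.7, 73.6 and 57.5 FPKM (log2 fold change 5.88 ± 0.32, adjusted p = 4.54e-10), and the bZIP gene zip-1, a regulator of the response, from 8.0, 8.35 and 9.15 to 35.2, 39.8 and 38.7 FPKM (log2 fold change 2.03 ± 0.15, adjusted p = 2.31e-08). The RIG-I-like receptor gene drh-1 was barely called (log2 fold change 0.25 ± 0.10, adjusted p = 0.0496), and not on leaving out control 7 or any treated library; it was -0.18 after median-of-ratios scaling and -0.30 after quantile normalization. Of 33 genes in this list, which also counts arrestin domain genes, 24 were called higher and 1 lower (median 0.89). The median was 0.23 under quantile normalization, where 13 were higher and 8 lower. The arrestin domain family arrd has 23 tested genes, 14 called higher and 1 lower (median 0.71), so the list count does not describe the named response genes alone.

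**Figure D3:**
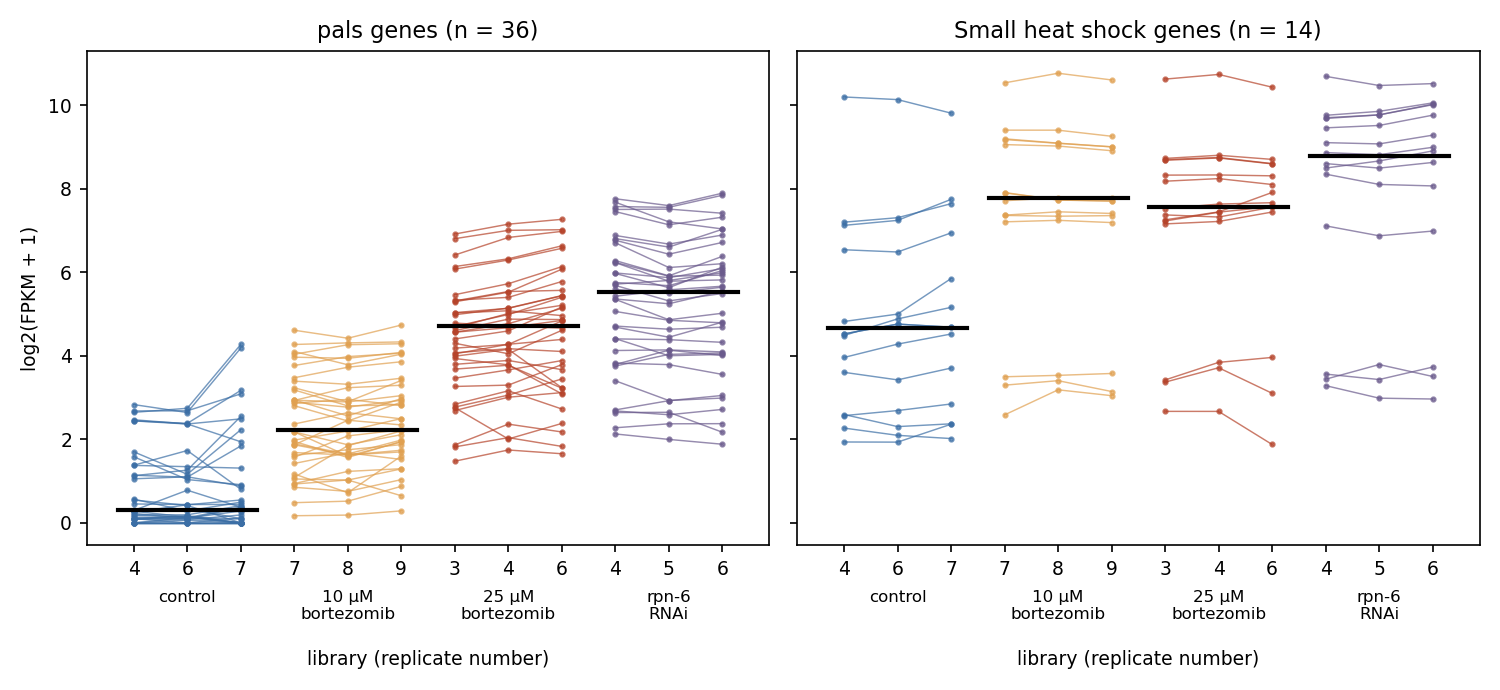
Levels of 36 pals genes (left) and 14 small heat shock genes (right) as log2(FPKM + 1) in 12 libraries of 4 groups, 1 line a gene within a group; black bars are the median over genes of the group means. The pals genes step up from control to 10 µM, 25 µM and rpn-6 RNAi, whereas the small heat shock genes are as high at 10 µM as at 25 µM.

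F-box and MATH domain proteins are substrate adaptors of ubiquitin ligases. Of 139 F-box A genes tested (170 in the table), 102 were called higher and 3 lower, with a median of 1.10; there were 88 higher and 10 lower after median-of-ratios scaling and 60 and 24 after quantile normalization. fbxa-115 was at 3.4, 2.59 and 2.53 FPKM in the controls and 50.3, 56.5 and 57.8 FPKM in the treated libraries (log2 fold change 3.87 ± 0.26, adjusted p = 6.07e-09). Against that direction, fbxa-72 fell from 38.5, 48.2 and 57.7 to 7.48, 7.46 and 10.7 FPKM (log2 fold change -2.36 ± 0.41, adjusted p = 1.63e-04). Of 64 MATH and BATH genes, 38 were higher and 4 lower (median 0.71, but -0.10 under quantile normalization), with 30 higher and 11 lower after median-of-ratios scaling and 17 and 11 after quantile normalization, and the lower calls were 2 without any of 4 libraries. math-41 rose from 3.47, 3.07 and 4.19 to 28.6, 28.8 and 31.9 FPKM (log2 fold change 2.75 ± 0.24, adjusted p = 1.15e-07), with no overlap. For F-box B and C genes the median and the calls differed in sign: the median was -0.70 over the 74 genes tested of 152 in the table, with 22 called higher and 8 lower. Without control 7 the counts were 18 higher and 38 lower, and without any other single library none was lower. There were 16 higher and 21 lower after median-of-ratios scaling and 7 and 42 after quantile normalization. Control 7 differed from the mean of controls 4 and 6 by -0.90 on the log2 scale, averaged over this list.

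Chitinase-like genes, several of which are induced by oomycete infection, rose in 13 of 21 cases and fell in 2 (median 0.70; 0.06 under quantile normalization). After median-of-ratios scaling 12 were higher and 4 lower, and after quantile normalization 7 and 7. chil-24 was at 3.07, 3.72 and 3.48 FPKM in the controls and 19.7, 23.1 and 21 FPKM in the treated libraries (log2 fold change 2.33 ± 0.13, adjusted p = 8.25e-10).

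Antimicrobial defence genes diverged by family. Of 55 antimicrobial peptide genes tested, 37 were called higher and none lower, with a median of 1.80. The caenacin gene cnc-4 was at 5.96, 12.3 and 7.05 FPKM in the controls and 148, 204 and 326 FPKM in the treated libraries (log2 fold change 4.57 ± 0.37, adjusted p = 5.03e-08). The epidermal peptide gene nlp-29, a reporter of wounding and fungal infection, was at 72.1, 55.9 and 59.8 FPKM in the controls and 286, 397 and 488 FPKM in the treated libraries (log2 fold change 2.60 ± 0.23, adjusted p = 1.17e-07). The related peptide gene nlp-34 was at 10.0, 9.11 and 31.9 FPKM in the controls and 138, 237 and 196 FPKM in the treated libraries (log2 fold change 3.60 ± 0.47, adjusted p = 1.09e-05), with control 7 well above controls 4 and 6. The defensin-like gene abf-2 rose from 1.53, 1.33 and 1.2 to 24.5, 35.6 and 14.4 FPKM (log2 fold change 3.37 ± 0.41, adjusted p = 5.48e-06). None of these 4 genes had overlapping groups.

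Lysozyme and saposin-like genes fell more often than they rose, 18 against 12 of 37 tested (median -0.66). After median-of-ratios scaling 8 were higher and 19 lower, and after quantile normalization 6 and 19. The largest rise of the list was in the lysozyme gene lys-3, at 0.482, 0.21 and 0.752 FPKM in the controls and 232, 239 and 218 FPKM in the treated libraries (log2 fold change 7.30 ± 0.24, adjusted p = 9.51e-13). The largest falls were in ilys-5, an invertebrate-type lysozyme gene, at 1318, 1322 and 1193 FPKM in the controls and 12.6, 6.26 and 36.9 FPKM in the treated libraries (log2 fold change -6.36 ± 0.46, adjusted p = 1.21e-08), and in the saposin-like gene spp-4, at 167, 126 and 129 FPKM in the controls and 2.23, 1.57 and 2.85 FPKM in the treated libraries (log2 fold change -5.47 ± 0.26, adjusted p = 9.25e-11). The groups of these 3 genes did not overlap. The pathogen-responsive intestinal lysozyme gene lys-7 fell from 93, 127 and 106 to 3.6, 1.94 and 9.56 FPKM (log2 fold change -4.38 ± 0.45, adjusted p = 8.76e-07). C-type lectin genes were divided, 51 higher (32.3%) and 40 lower (25.3%) of 158 tested (240 in the table), beside 42.3% and 11.1% of all genes. Their median of 0.05 was -0.04 after median-of-ratios scaling and -0.39 after quantile normalization. Rescaled, they were 41 higher and 49 lower after median-of-ratios scaling and 18 and 62 after quantile normalization. clec-60 rose from 0.0638, 0.185 and 0.311 to 17.1, 18.8 and 15.5 FPKM (log2 fold change 3.93 ± 0.48, adjusted p = 5.05e-06), and the symbol clec-209, with 2 gene IDs of near-equal values, fell from 123, 115 and 111 to 0.603, 0.161 and 0.392 FPKM (log2 fold change -6.41 ± 0.28, adjusted p = 2.89e-11).

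Genes of the p38 MAP kinase immune pathway rose in 12 of 19 cases and fell in 1 (median 0.71; 0.04 under quantile normalization). After median-of-ratios scaling 9 were higher and 3 lower, and after quantile normalization 5 and 3. The TIR domain adaptor gene tir-1, which lies upstream of the kinases, was at 7.92, 7.53 and 8.05 FPKM in the controls and 35.2, 40.7 and 33.1 FPKM in the treated libraries (log2 fold change 2.07 ± 0.20, adjusted p = 4.37e-07). The phosphatase gene vhp-1, a negative regulator of the pathway, was at 17, 18.5 and 20.5 FPKM in the controls and 85.7, 86.2 and 89.3 FPKM in the treated libraries (log2 fold change 2.17 ± 0.20, adjusted p = 2.67e-07). Neither gene's groups overlapped. The kinase gene pmk-1 rose less (15.9, 15.6 and 13.4 to 25, 25.6 and 24.7 FPKM; log2 fold change 0.71 ± 0.17, adjusted p = 0.00223) and was called under neither rescaling (0.29 after median-of-ratios scaling and -0.01 after quantile normalization), and the transcription factor gene atf-7 at the pathway's end was not called (log2 fold change -0.13 ± 0.08, adjusted p = 0.156). Without control 7 atf-7 was called lower (log2 fold change -0.20 ± 0.08, adjusted p = 0.0394), as it was after median-of-ratios scaling (-0.57) and quantile normalization (-0.23). The epidermal STAT gene sta-2, which acts on nlp-29 after infection, rose from 5.06, 6.11 and 5.62 to 17.8, 20.1 and 21.8 FPKM (log2 fold change 1.66 ± 0.19, adjusted p = 2.80e-06). One infection response gene, irg-4, was lower, at 37.9, 36.3 and 35.4 FPKM in the controls and 28.1, 17.7 and 2.95 FPKM in the treated libraries (log2 fold change -1.54 ± 0.53, adjusted p = 0.0229), and treated library 6 was far below the other two. Without that library irg-4 was not called (adjusted p = 0.138), nor without control 4 or control 6.

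Autophagy genes rose and lysosomal protease genes fell. Of 28 autophagy genes, 19 were called higher and none lower (median 0.64; 0.21 after median-of-ratios scaling and 0.19 after quantile normalization). After median-of-ratios scaling 11 were higher and 0 lower, and after quantile normalization 10 and 1. The selective autophagy receptor gene sqst-1, the worm p62, was at 16, 20.5 and 26.1 FPKM in the controls and 147, 161 and 146 FPKM in the treated libraries (log2 fold change 2.82 ± 0.17, adjusted p = 1.15e-09). The ATG8 gene lgg-1, whose product is conjugated to autophagosome membranes, was at 490.1, 473 and 396 FPKM in the controls and 1037, 1057 and 1037 FPKM in the treated libraries (log2 fold change 1.21 ± 0.08, adjusted p = 2.26e-09). In both genes the lowest treated value was more than 2 times the highest control value. The beclin gene bec-1 rose from 36, 34.7 and 26.1 to 75.9, 79.5 and 74.1 FPKM (log2 fold change 1.23 ± 0.14, adjusted p = 1.64e-06), and hlh-30, the worm TFEB, from 38.1, 38.6 and 46.6 to 71, 74 and 71.9 FPKM (log2 fold change 0.81 ± 0.10, adjusted p = 6.22e-06).

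Of 25 lysosomal and cathepsin protease genes tested, 18 were called lower and 1 higher, with a median of -1.44, beside 11.1% lower among all genes. The aspartyl protease gene asp-13 was at 155, 219 and 171 FPKM in the controls and 1.59, 0.711 and 5.26 FPKM in the treated libraries (log2 fold change -5.90 ± 0.56, adjusted p = 3.40e-07). The cathepsin B-like gene cpr-5 was at 234, 292 and 399 FPKM in the controls and 25.5, 19.3 and 28.5 FPKM in the treated libraries (log2 fold change -3.59 ± 0.22, adjusted p = 2.40e-09). The nuclease gene nuc-1, whose product digests DNA in the gut and in engulfed cells, fell from 97.5, 89.5 and 79.6 to 25.3, 22.5 and 18.1 FPKM (log2 fold change -1.98 ± 0.22, adjusted p = 2.31e-06). No treated value of these 3 genes reached the controls. The exception was cpr-3, another cathepsin B-like gene, at 5.34, 5.77 and 12.3 FPKM in the controls and 135, 158 and 166 FPKM in the treated libraries (log2 fold change 4.21 ± 0.27, adjusted p = 3.76e-09).

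Detoxification genes changed in both directions. Of 49 glutathione S-transferase genes, 27 were called higher and 9 lower (median 0.74, but -0.21 under quantile normalization). After median-of-ratios scaling 18 were higher and 10 lower, and after quantile normalization 15 and 16. gst-4, the standard reporter of SKN-1 activity, was at 66.4, 65.2 and 69.3 FPKM in the controls and 192, 201 and 176 FPKM in the treated libraries (log2 fold change 1.49 ± 0.16, adjusted p = 1.21e-06). gst-30 was at 4.67, 3.38 and 5.22 FPKM in the controls and 76.7, 79 and 82.3 FPKM in the treated libraries (log2 fold change 3.90 ± 0.37, adjusted p = 3.59e-07). Both were separated from the controls in every library. In the other direction, gst-26 was at 80.8, 77.8 and 95.4 FPKM in the controls and 12.9, 8.99 and 11.1 FPKM in the treated libraries (log2 fold change -2.84 ± 0.21, adjusted p = 1.78e-08). The glutathione synthesis gene gcs-1, another SKN-1 target, rose by little (log2 fold change 0.28 ± 0.06, adjusted p = 5.01e-04), with -0.15 after median-of-ratios scaling and no call under either rescaling. Of 66 cytochrome P450 genes, 13 (19.7%) were higher and 14 (21.2%) lower, and of 64 UDP-glucuronosyltransferase genes 12 (18.8%) and 24 (37.5%). Among all genes 42.3% were higher and 11.1% lower. Rescaled, the P450 genes had 12 higher and 24 lower after median-of-ratios scaling and 7 and 33 after quantile normalization. The shares of all genes moved as well, to 29% higher and 25.5% lower after median-of-ratios scaling and 19.7% and 28.6% after quantile normalization. The UDP-glucuronosyltransferase genes had 11 higher and 29 lower after median-of-ratios scaling and 3 and 36 after quantile normalization. cyp-35A2, a drug-inducible P450 gene, fell from 94.7, 61 and 23 to 1.4, 0.874 and 1.07 FPKM (log2 fold change -4.63 ± 0.44, adjusted p = 3.13e-07), and ugt-22 from 151, 101 and 83.1 to 5.12, 5.02 and 5.73 FPKM (log2 fold change -4.12 ± 0.18, adjusted p = 3.13e-11).

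Redox and metal genes included some of the larger individual changes. The thioredoxin gene trx-3, induced by intestinal pathogens, was at 1.15, 1.25 and 12.2 FPKM in the controls and 97.8, 90.8 and 122 FPKM in the treated libraries (log2 fold change 4.70 ± 0.59, adjusted p = 7.70e-06), with control 7 well above controls 4 and 6. The extracellular superoxide dismutase gene sod-4 was at 18.1, 17.6 and 15.3 FPKM in the controls and 76.6, 76.1 and 67.4 FPKM in the treated libraries (log2 fold change 2.05 ± 0.13, adjusted p = 2.30e-09). The mitochondrial superoxide dismutase gene sod-3, a DAF-16 target, was at 7.22, 8.72 and 8.65 FPKM in the controls and 4.05, 3.68 and 2.35 FPKM in the treated libraries and was not called (log2 fold change -1.10 ± 0.45, adjusted p = 0.0513), but was called lower after median-of-ratios scaling (-1.47, adjusted p = 0.0112) and quantile normalization (-1.97, adjusted p = 0.0032). The symbol numr-1, for a nuclear cadmium-responsive gene, has 2 gene IDs of near-identical copies, at 0.59, 0.454 and 0.575 FPKM in the controls and 29.2, 37 and 17.4 FPKM in the treated libraries (log2 fold change 4.17 ± 0.32, adjusted p = 2.52e-08) and at 1.61, 1.21 and 1.26 FPKM in the controls and 76.3, 107 and 42.7 FPKM in the treated libraries (log2 fold change 4.93 ± 0.32, adjusted p = 3.22e-09). The metallothionein gene mtl-2 fell, from 204, 199 and 129 to 16.4, 7.68 and 7.23 FPKM (log2 fold change -4.02 ± 0.30, adjusted p = 1.68e-08), while mtl-1 was at 2.2, 0 and 0.716 FPKM in the controls and 13.7, 11.9 and 5.76 FPKM in the treated libraries, with 1 control listed at 0. The cadmium-responsive gene cdr-4 rose to 125, 139 and 136 FPKM from 21.4, 20.1 and 34.7 (log2 fold change 2.39 ± 0.16, adjusted p = 7.28e-09).

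Yolk protein genes lost most of their signal. All 6 vitellogenin genes were lower in every treated library than in every control, and 4 were called (median -5.80). vit-3 was at 1110.1, 1024 and 814 FPKM in the controls and 17, 3.9 and 4.85 FPKM in the treated libraries (log2 fold change -6.93 ± 0.70, adjusted p = 6.85e-07). vit-1 was at 1011, 981 and 673 FPKM in the controls and 14.7, 5.46 and 10.7 FPKM in the treated libraries (log2 fold change -6.37 ± 0.64, adjusted p = 6.08e-07). The treated libraries differed among themselves in these genes, with library 3 highest. The log2 fold changes of vit-4 and vit-5 were -6.79 ± 0.81 and -5.23 ± 1.24 (adjusted p = 3.84e-06 and 0.00222); vit-3, vit-4 and vit-5 are near-identical, so reads could be split among them. vit-2 was at 1939, 1806 and 1687 FPKM in the controls and 357, 237 and 166 FPKM in the treated libraries and vit-6 at 1885, 1789 and 1771 FPKM in the controls and 370.1, 239 and 186 FPKM in the treated libraries. Neither of the last 2 was called in the fit of all libraries (log2 fold change -2.90 ± 1.32, adjusted p = 0.076, and log2 fold change -2.83 ± 1.26, adjusted p = 0.0695), whereas all 6 vitellogenin genes were called lower when the 2 groups were fitted by themselves, and also after median-of-ratios scaling.

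Fat metabolism genes changed in both directions, 30 higher (34.9%) and 29 lower (33.7%) of 86 tested, beside 42.3% and 11.1% of all genes. Their median of 0.17 turned negative under either rescaling. Rescaled, they were 22 higher and 39 lower after median-of-ratios scaling and 16 and 37 after quantile normalization. The acyl-CoA synthetase gene acs-2, a fasting-induced gene of mitochondrial beta-oxidation, was at 6.22, 6.11 and 17.5 FPKM in the controls and 217, 258 and 139.9 FPKM in the treated libraries (log2 fold change 4.34 ± 0.34, adjusted p = 3.51e-08). The stearoyl-CoA desaturase gene fat-7 was at 58.5, 58.9 and 46.3 FPKM in the controls and 0.227, 0.0605 and 0.442 FPKM in the treated libraries (log2 fold change -5.49 ± 0.34, adjusted p = 1.97e-09). The acyl-CoA dehydrogenase gene acdh-1, known for its response to propionate and vitamin B12, was at 866, 963 and 1018 FPKM in the controls and 11, 3.99 and 128 FPKM in the treated libraries (log2 fold change -5.59 ± 0.90, adjusted p = 9.47e-05). The groups did not overlap in any of the 3, but acdh-1 varied widely among the treated libraries, with library 6 the highest. The folate transporter family gene folt-2 fell from 268, 321 and 352 to 2.63, 0.698 and 3.45 FPKM (log2 fold change -6.70 ± 0.39, adjusted p = 1.02e-09), and pud-3, a gene of a family raised in insulin receptor mutants, from 680.2, 477 and 256 to 5.39, 3.59 and 0.302 FPKM (log2 fold change -7.02 ± 0.68, adjusted p = 4.24e-07).

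**Figure D4:**
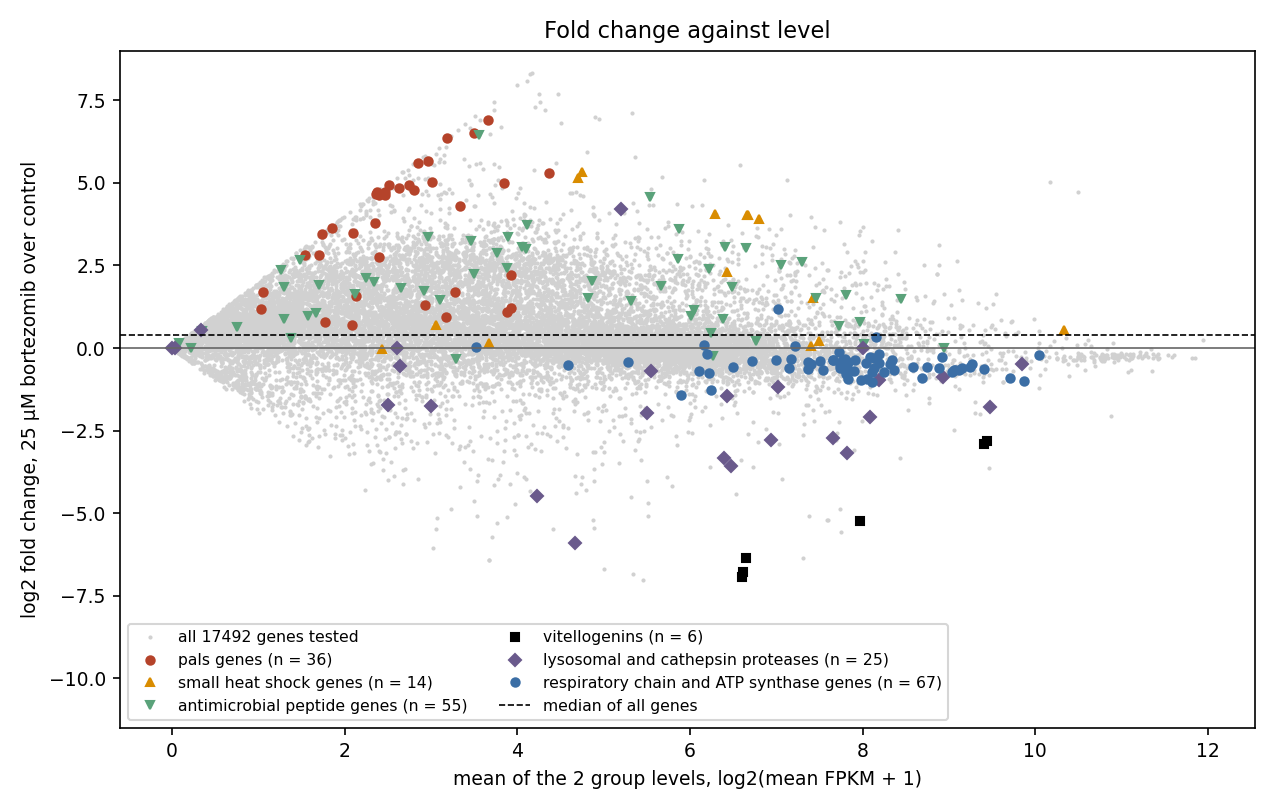
Log2 fold change of each of 17492 genes (25 µM bortezomib over control) against the mean of the 2 group levels as log2(mean FPKM + 1), with 6 gene lists marked. The pals genes and antimicrobial peptide genes lie mostly among low-level genes that rose, and vitellogenin, lysosomal protease and respiratory chain genes among well expressed genes that fell.

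Genes of respiration and translation fell by smaller amounts. Of 67 respiratory chain and ATP synthase genes, 58 were called lower and 1 higher (median -0.52, against 0.40 for all genes). The ATP synthase beta subunit gene atp-2 was at 1289.8, 1251 and 1452 FPKM in the controls and 687, 628 and 660.2 FPKM in the treated libraries (log2 fold change -1.01 ± 0.08, adjusted p = 4.87e-08). The complex I gene gas-1 fell from 106, 108 and 139 to 48, 47.5 and 46.8 FPKM (log2 fold change -1.28 ± 0.13, adjusted p = 8.67e-07), and ndua-12, another complex I gene, was the 1 called higher (log2 fold change 0.35 ± 0.06, adjusted p = 2.06e-04), with -0.09 after median-of-ratios scaling. Mitochondrial ribosomal protein genes were lower in 44 and higher in 3 of 69 cases (median -0.29), with 65 lower after median-of-ratios scaling. Of 42 translation initiation and elongation factor genes, 26 were lower and none higher (median -0.33). The initiation factor gene inf-1, which encodes the helicase eIF4A, was at 566, 541 and 579.7 FPKM in the controls and 276, 242 and 279 FPKM in the treated libraries (log2 fold change -1.08 ± 0.11, adjusted p = 1.11e-06).

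For cytosolic ribosomal protein genes the count was less stable. Of 80, 52 were called lower and 2 higher, with a median of -0.25 that was 0.02 under quantile normalization, where 4 were lower and 4 higher, while 78 were lower after median-of-ratios scaling. The lower calls numbered 23 without control 7, 28 without treated library 4 and 30 without treated library 3. rpl-28 was at 1489, 1509 and 1720.3 FPKM in the controls and 1079, 1108 and 1205 FPKM in the treated libraries (log2 fold change -0.47 ± 0.09, adjusted p = 3.62e-04). Aminoacyl-tRNA synthetase genes were lower in 11 and higher in 4 of 32 cases. After median-of-ratios scaling 0 were higher and 25 lower, and after quantile normalization 0 and 18. The glycyl-tRNA synthetase gene gars-1 fell from 151, 142 and 132 to 86.4, 87.7 and 84.3 FPKM (log2 fold change -0.71 ± 0.08, adjusted p = 3.72e-06). Nucleolar and ribosome biogenesis genes had 7 rises and 9 falls of 29, among them a fall of the fibrillarin gene fib-1 (log2 fold change -0.56 ± 0.11, adjusted p = 5.23e-04) and a rise of lpd-7 (log2 fold change 0.83 ± 0.07, adjusted p = 1.48e-07). The counts were 1 higher and 19 lower after median-of-ratios scaling and 4 and 15 after quantile normalization.

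Genes of neuropeptides and their processing rose widely. Of 74 tested, 69 were called higher and 1 lower (median 1.12), beside 42.3% higher among all genes. After median-of-ratios scaling 63 were higher and 3 lower, and after quantile normalization 43 and 3. flp-34 was at 2.71, 2.2 and 3.12 FPKM in the controls and 63.3, 75.3 and 90.9 FPKM in the treated libraries (log2 fold change 4.39 ± 0.29, adjusted p = 5.09e-09). nlp-8 was at 11.2, 11.5 and 17.2 FPKM in the controls and 49.2, 47 and 38.8 FPKM in the treated libraries (log2 fold change 1.70 ± 0.22, adjusted p = 1.19e-05). The synaptic vesicle gene rab-3 rose less, from 9.54, 8.46 and 11.2 to 18.8, 20.8 and 20.0 FPKM (log2 fold change 0.97 ± 0.26, adjusted p = 0.005), and was not called after quantile normalization (0.08, adjusted p = 0.782). The pan-neuronal gene unc-119 was not called (log2 fold change -0.20 ± 0.15, adjusted p = 0.269), but without control 7 it was called lower (log2 fold change -0.39 ± 0.14, adjusted p = 0.024), as it was after median-of-ratios scaling (-0.62) and quantile normalization (-0.90). The 1 lower member was nlp-36 (272, 294 and 347 to 151, 144 and 177 FPKM; log2 fold change -0.94 ± 0.12, adjusted p = 9.60e-06). Insulin-like peptide and daf-16 pathway genes were called higher in 15 of 43 cases (34.9%, below the 42.3% of all genes) and lower in 1 (median 0.65, but -0.01 under quantile normalization). After median-of-ratios scaling 13 were higher and 2 lower, and after quantile normalization 8 and 6. ins-37 was at 2.59, 2.97 and 20.6 FPKM in the controls and 112, 119.5 and 112 FPKM in the treated libraries (log2 fold change 4.10 ± 0.71, adjusted p = 1.90e-04), and daf-16, the FOXO gene of that pathway, at 73.3, 74.5 and 67.2 FPKM in the controls and 116, 113 and 111 FPKM in the treated libraries (log2 fold change 0.66 ± 0.08, adjusted p = 5.51e-06; 0.22 and not called after median-of-ratios scaling, adjusted p = 0.0547). Nuclear hormone receptor genes rose in 107 of 191 tested cases (274 in the table) and fell in 14 (median 0.51, but -0.32 under quantile normalization). After median-of-ratios scaling 66 were higher and 35 lower, and after quantile normalization 23 and 76. Among them nhr-114, which protects germline stem cells when vitamin B12 is scarce, fell from 82.1, 108 and 124 to 10.5, 9.35 and 27.2 FPKM (log2 fold change -2.80 ± 0.41, adjusted p = 3.95e-05).

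Sperm, oocyte and embryo genes differed between control 7 and the other controls. Of 90 sperm genes tested, 33 (36.7%, below the 42.3% of all genes) were called higher and none lower (median 0.88), and 39 were higher without control 7. With only these 2 groups in the fit 38 were higher and 1 lower, and 84 and 2 when control 7 was left out as well. These 2 fits called 7564 and 8560 of all 17492 genes higher. The level of this list was -0.55 in control 4, -0.40 in control 6, 0.95 in control 7 and 1.22 to 1.30 in the treated libraries, in log2 units from the control mean. The sperm gene spe-18 was at 12.7, 13.9 and 97.2 FPKM in the controls and 201, 234 and 253 FPKM in the treated libraries (log2 fold change 3.07 ± 0.78, adjusted p = 0.00358). The major sperm protein gene msp-3 was at 103, 119.9 and 332 FPKM in the controls and 202, 216 and 259 FPKM in the treated libraries and was not called (log2 fold change 0.48 ± 0.77, adjusted p = 0.616). Control 7 exceeded every treated library, and msp genes are near-identical copies whose reads could be split. Oocyte and eggshell genes had 3 higher (6.25%) and 2 lower (4.17%) of 48 (median -0.91), beside 42.3% and 11.1% of all genes. Without control 7 there were 4 and 7. With only these 2 groups in the fit 20 were lower, and 39 when control 7 was left out as well. Every treated library was below every control for 22 of the 48, beside 13.4% of all genes, and above for 4, beside 49.7%. The counts of calls were 2 higher and 16 lower after median-of-ratios scaling and 3 and 6 after quantile normalization. The yolk receptor gene rme-2 was at 327, 321 and 197 FPKM in the controls and 144, 122 and 81.7 FPKM in the treated libraries (log2 fold change -1.28 ± 0.67, adjusted p = 0.117), with no overlap and no call. It was called after median-of-ratios scaling (-1.72, adjusted p = 0.0445) and in the fit of the 2 groups by themselves (adjusted p = 0.0146). Early embryo genes had 6 higher and 6 lower of the 37 tested of 67 in the table (median -0.99), and 6 and 24 without control 7. Leaving out another library gave 1 to 3 lower calls, and the counts were 5 higher and 16 lower after median-of-ratios scaling and 4 and 26 after quantile normalization.

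Among germline genes, 10 of 53 were higher (18.9%) and 7 lower (13.2%), beside 42.3% and 11.1% of all genes. Without control 7 there were 9 and 13, and leaving out control 4, control 6, or treated library 4 or 6 gave 3 or 4 lower calls. The balance turned under rescaling, where the shares of all genes moved as well. These were 29% higher and 25.5% lower after median-of-ratios scaling and 19.7% and 28.6% after quantile normalization. The germline counts follow. After median-of-ratios scaling 1 was higher and 27 lower, and after quantile normalization 5 and 21. The synaptonemal complex gene syp-1 was at 46, 47.6 and 43.5 FPKM in the controls and 95.5, 94.9 and 96.3 FPKM in the treated libraries (log2 fold change 1.05 ± 0.13, adjusted p = 6.77e-06). The translational repressor gene gld-1 was at 542, 514 and 467 FPKM in the controls and 384, 368 and 338 FPKM in the treated libraries (log2 fold change -0.48 ± 0.29, adjusted p = 0.167; called after median-of-ratios scaling, -0.92, adjusted p = 0.0194), and the replication licensing gene mcm-7 fell from 179, 188 and 114 to 90.0, 80.0 and 58.4 FPKM (log2 fold change -1.05 ± 0.37, adjusted p = 0.0263), a call lost without control 4, control 6 or treated library 6. Muscle contractile genes had 6 rises and 11 falls of 39, but 11 rises and 5 falls without control 7, and the median changed sign (-0.12 and 0.06). Without treated library 3 or 4 the falls were 5 or 7, and the counts were 2 higher and 20 lower after median-of-ratios scaling and 5 and 9 after quantile normalization. The myosin heavy chain gene unc-54 was not called (397, 421 and 593 FPKM in the controls and 392, 407 and 488 FPKM in the treated libraries; log2 fold change -0.12 ± 0.14, adjusted p = 0.499), but was called lower after median-of-ratios scaling (-0.56, adjusted p = 0.00365).

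Of 128 cuticle collagen genes tested (156 in the table), 67 were higher and 3 lower (median 1.57). After median-of-ratios scaling 50 were higher and 5 lower, and after quantile normalization 43 and 7. Without control 7, 78 were higher and 4 lower, whereas 31, 29 or 37 were higher without control 4, control 6 or treated library 6. The list's level was -0.60 in control 4, -0.63 in control 6, 1.24 in control 7 and 1.25 to 1.85 in the treated libraries. Furrow and shape collagen genes, many of which are expressed around the moults, were called higher in 5 of 23 cases (21.7%). The count was 12 without control 7, 2 without treated library 4 and 0 without control 4, control 6 or treated library 6. With only these 2 groups in the fit 7 were higher, and 22 when control 7 was left out as well. After median-of-ratios scaling 4 were higher and 0 lower, and after quantile normalization 3 and 0. dpy-13 was at 12.5, 13.7 and 204 FPKM in the controls and 189.8, 241 and 424 FPKM in the treated libraries (log2 fold change 2.97 ± 1.07, adjusted p = 0.0286). rol-6 was at 1.67, 1.84 and 21.1 FPKM in the controls and 45.8, 42.1 and 61.2 FPKM in the treated libraries (log2 fold change 3.18 ± 1.09, adjusted p = 0.0224), and was not called after quantile normalization (2.42, adjusted p = 0.0632). For dpy-13 control 7 reached the treated range, and for rol-6 it lay between. Both calls were lost on leaving out control 4, control 6 or treated library 6. The adult-specific collagen gene col-19 was not called (1798, 1908 and 2313 FPKM in the controls and 1579, 1560.5 and 1402 FPKM in the treated libraries; log2 fold change -0.40 ± 0.61, adjusted p = 0.6). Hedgehog-related genes, also active in the epidermis, were called higher in 25 (36.8%, below the 42.3% of all genes) and lower in 6 of 68 tested cases (85 in the table). There were 19 higher and 7 lower after median-of-ratios scaling, 11 and 8 after quantile normalization, and 15 rises without control 6 or treated library 6. With only these 2 groups in the fit 44 were higher and 5 lower, and 54 and 7 when control 7 was left out as well. grl-21 was at 2.18, 2.32 and 46.7 FPKM in the controls and 191, 241 and 419 FPKM in the treated libraries (log2 fold change 5.08 ± 1.00, adjusted p = 5.30e-04). What part the state of control 7 had in these differences beyond its removal was not tested.

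The 25 µM dose was set against 10 µM to ask which genes differed between the doses. The 10 µM libraries carry replicate numbers 7, 8 and 9, none of them shared with the 25 µM libraries. Dose and any other difference between these sets of libraries cannot be told apart. Of 17492 genes, 6932 (39.6%) were called, 4765 (27.2%) higher and 2167 (12.4%) lower at 25 µM, with a median log2 fold change of 0.27 over all genes. Of 36 pals genes of the pathogen response, 30 were higher at 25 µM than at 10 µM and none lower (median 2.15). eol-1 was at 25.5, 33.8 and 32.5 FPKM at 10 µM (log2 fold change of 25 over 10 µM 3.01 ± 0.22, adjusted p = 3.53e-08). lys-3 was at 2.13, 3.35 and 2.89 FPKM at 10 µM (25 over 10 µM, 5.94 ± 0.24, adjusted p = 3.05e-11). These values lie between the controls and the 25 µM libraries. Antimicrobial peptide genes (30 higher, none lower of 55), neuropeptide genes (65 higher, 1 lower of 74) and p38 pathway genes (12 higher, 2 lower of 19) also rose between the doses; without treated library 6 the antimicrobial peptide count was 19. For cnc-4 the 10 µM values were 14.7, 23.3 and 12.4 FPKM (25 over 10 µM, 3.65 ± 0.37, adjusted p = 1.46e-06).

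Small heat shock and proteasome genes did not rise between the doses as groups. Of 14 small heat shock genes 1 was higher and 2 were lower at 25 µM (median -0.25). hsp-16.2 was at 239, 211 and 206.60 FPKM at 10 µM and 142, 148 and 173 FPKM at 25 µM (25 over 10 µM, -0.51 ± 0.25, adjusted p = 0.114). hsp-70 was at 60.2, 52 and 54.9 FPKM at 10 µM (25 over 10 µM, -0.79 ± 0.35, adjusted p = 0.0783). In both genes every 10 µM library was above every 25 µM library, although neither difference was called. None of the 33 proteasome subunit genes was higher at 25 µM and 3 were lower, all of them alpha subunits, a count that fell to 1 or 0 without any of 5 libraries; rpt-6 was at 296, 315 and 311 FPKM at 10 µM (25 over 10 µM, 0.04 ± 0.07, adjusted p = 0.648). gst-4 was at 199, 213 and 203 FPKM at 10 µM (25 over 10 µM, -0.11 ± 0.16, adjusted p = 0.57).

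Several groups were lower at 25 µM than at 10 µM. Lysosomal protease genes were lower at 25 µM in 16 of 25 cases (median -1.43), respiratory chain genes in 47 of 67 (median -0.30) and vitellogenin genes in 4 of 6 (median -4.27). cpr-5 was at 272, 264 and 274 FPKM at 10 µM, within the control range, and at 25.5, 19.3 and 28.5 FPKM at 25 µM (25 over 10 µM, -3.43 ± 0.22, adjusted p = 1.01e-08). asp-13 was at 127, 122 and 128 FPKM at 10 µM (25 over 10 µM, -5.39 ± 0.56, adjusted p = 1.97e-06). hsp-60 was at 249, 258 and 253 FPKM at 10 µM (25 over 10 µM, -1.39 ± 0.14, adjusted p = 9.78e-07), between the controls and 25 µM. pud-3 differed from these genes: it was at 0.504, 0.415 and 0.221 FPKM at 10 µM, no higher than at 25 µM (25 over 10 µM, 1.29 ± 0.68, adjusted p = 0.139).

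Set against rpn-6 RNAi, in which a lid subunit gene is targeted, 3861 genes (22.1%) were called, 2460 (14.1%) higher and 1401 (8.01%) lower in the drug-treated worms. The targeted gene rpn-6.1 was at 115, 122 and 127 FPKM in the RNAi libraries, below each control and higher with bortezomib (bortezomib over RNAi, 0.83 ± 0.14, adjusted p = 5.52e-04). Of 14 small heat shock genes, 8 were lower with bortezomib and none higher (median -0.91). hsp-16.2 was at 387, 359 and 394 FPKM with RNAi (bortezomib over RNAi, -1.30 ± 0.25, adjusted p = 0.00197). hsp-70 was at 155, 149 and 190.2 FPKM with RNAi (bortezomib over RNAi, -2.33 ± 0.35, adjusted p = 2.54e-04). No bortezomib library reached the RNAi values of either gene. Of 36 pals genes, 18 were lower with bortezomib than with RNAi and 1 higher (median -0.64); pals-5 was at 74.3, 58.8 and 60.0 FPKM with RNAi. For eol-1, at 397, 344 and 335 FPKM with RNAi, the difference was not called (bortezomib over RNAi, -0.51 ± 0.22, adjusted p = 0.105).

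Some defence genes were higher with bortezomib than with RNAi. Of 55 antimicrobial peptide genes, 18 were higher and 4 lower (median 1.24), but 10 to 13 were higher without any of 5 libraries. lys-3 was at 30.6, 18 and 34.3 FPKM with RNAi (bortezomib over RNAi, 3.06 ± 0.24, adjusted p = 4.78e-07). math-41 was at 3.6, 3.27 and 4.66 FPKM with RNAi (bortezomib over RNAi, 2.68 ± 0.24, adjusted p = 2.06e-06). skr-5 was at 30.1, 21.4 and 33 FPKM with RNAi (bortezomib over RNAi, 1.37 ± 0.36, adjusted p = 0.0143; not called without treated library 4). All 3 treated libraries exceeded all RNAi libraries in these genes. Yolk genes were lower still with bortezomib in 3 of 6 cases, among them vit-3, at 62.5, 120.0 and 43 FPKM with RNAi (bortezomib over RNAi, -3.12 ± 0.70, adjusted p = 0.00627), and in 1 case without treated library 4, treated library 6 or RNAi library 5. The lysosomal protease genes differed in few cases, 3 higher and 2 lower of 25 (median 0.00). The RNAi and drug groups also differed in plate type and in the stage at which treatment began, so the agent and these conditions cannot be told apart.

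**Figure D5:**
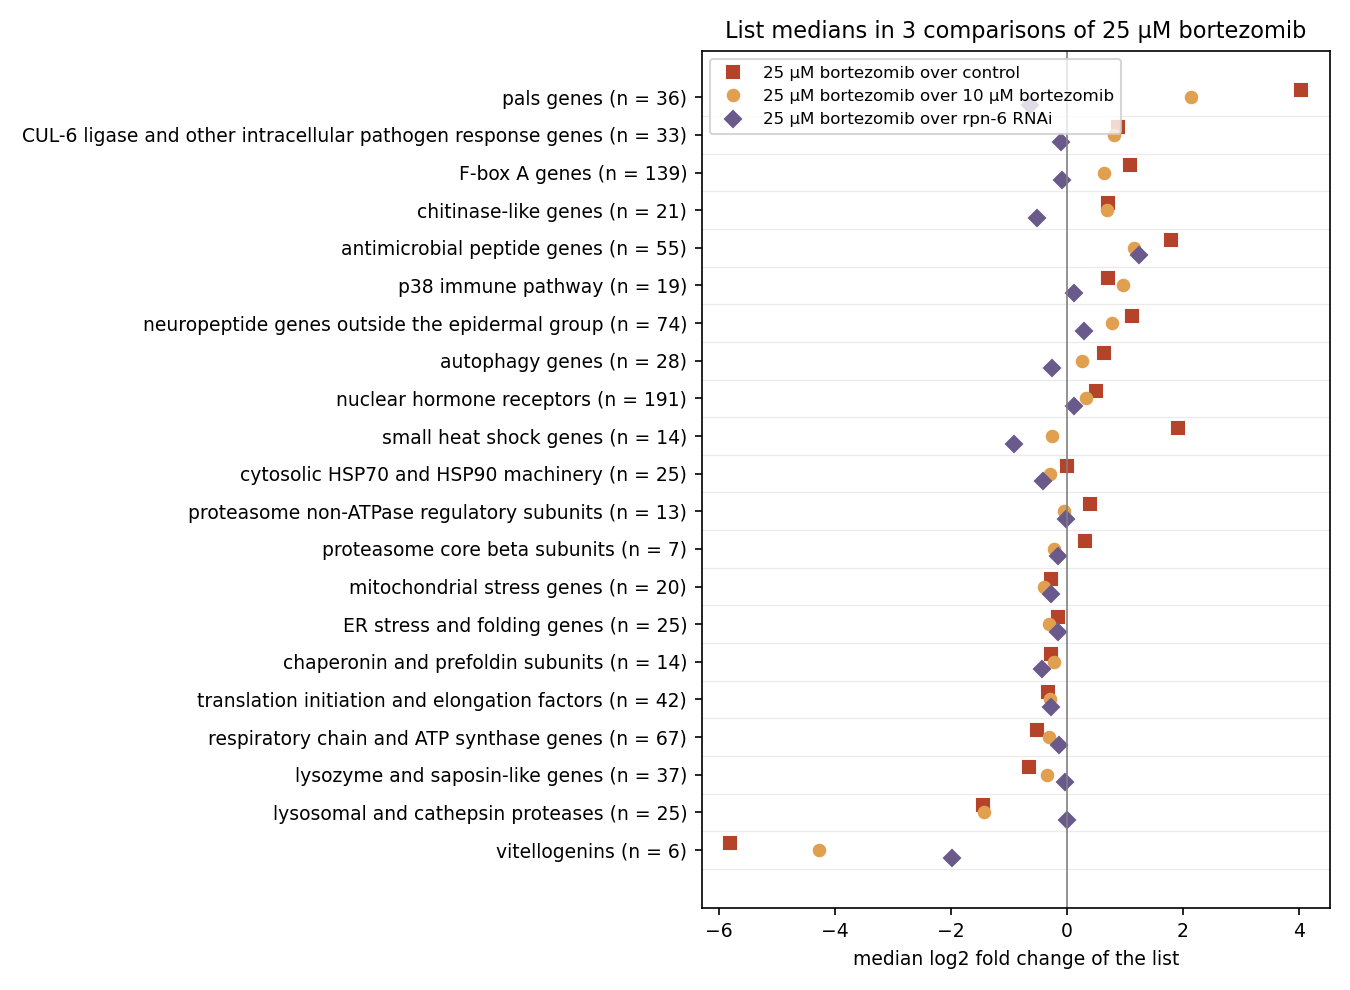
Median log2 fold change of 21 gene lists in 25 µM bortezomib over control (squares), over 10 µM bortezomib (circles) and over rpn-6 RNAi (diamonds), from 3 libraries a group; the 3 comparisons share the 25 µM libraries. The pals median is 4.04 over control and 2.15 over 10 µM but below 0 over rpn-6 RNAi, and the small heat shock median is above 0 over control alone.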

How the data were processed

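Whole-worm mRNA libraries (TruSeq Stranded mRNA, RNA from Trizol and RNeasy, per the labels' protocols) were deposited by the authors as 1 table of FPKM values for 21 libraries in 7 groups of 3. CASAVA and Cufflinks appear in the submitters' processing notes; the aligner, its settings and the genome build are not given in the sources used here. FPKM sums of the 6 libraries ran from 960974 to 1029131. Read counts are unknown, so absolute depth is unknown and no counting interval was given; the commonest ratio between low values put relative depth between 1.0 and 1.38. Of 46254 gene IDs, 43200 had a name in the table.

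Genes that reached 1 FPKM in 3 or more libraries were tested on log2(FPKM + 1) with limma 3.58.1 in R 4.3.3 (lmFit, then eBayes with trend; 7 group means, all 21 libraries, 14 residual degrees of freedom). Zeros below 0.001 FPKM in abundant genes occurred in 30 genes of the 6 libraries and may be failed estimates; genes with a value of 0 are given by value only. The fit was tested on simulated data. Tables and plots used Python 3.11.15, pandas 2.3.3, numpy 2.4.6 and matplotlib 3.10.9.

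Members, gene lists and tests were chosen with earlier results of these data known. Named genes are the 8 largest rises and falls called with and without control 7 (symbol, at least 5 FPKM in 1 group, no overlap, no 0), from each list at most 4 called members that moved with its majority and 2 that moved against it, and a fixed panel. Marker genes apart, atf-7, drh-1, hlh-30, nuc-1, pmk-1, zip-1, pals-23, pas-5, sip-1, hsp-17, hsp-43 and the other small heat shock genes named were chosen after their values were seen. Alternatives were other pseudocounts, filters, scalings, library weights, samples in the fit, a replicate block, zeros as missing, and each library left out. Replicate numbers 4 and 6 occur in both groups, but whether they pair the samples is not known. Sequences were not analysed here.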

Additional observations from a re-analysis of the deposited data

How the results depend on the processing

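Of the 127 named genes called, 99 kept direction and call under every alternative run. Of all values of called genes, 8 changed sign: drh-1 was -0.18 after median-of-ratios scaling and -0.30 after quantile normalization, png-1 -0.12 and -0.30, pbs-5 -0.17, gcs-1 -0.15 and ndua-12 -0.093 after median-of-ratios scaling, and pmk-1 -0.0089 after quantile normalization. The cause was not tested.

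Rises numbered 7397 and were 3453 after quantile normalization, 9858 with array weights and 6255 to 7349 with 1 library left out. Falls numbered 1936, against 4459 after median-of-ratios scaling, 4998 after quantile normalization, 4283 with array weights, 1539 to 2534 with 1 library left out, and 3520 in a fit of the 2 groups without control 7, an alternative chosen after seeing the data. For 25 against 10 µM, 6932 calls became 13588 with array weights, 12085 in a fit of the 2 groups and 4980 to 5811 with 1 library left out. Against rpn-6 RNAi, 3861 calls became 10974 with array weights, 8403 in a fit of the 2 groups and 1913 to 2460 with 1 library left out.

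Replicate numbers 4 and 6 are shared by controls and treated libraries, and deviations of same-numbered libraries correlated at 0.054 and -0.263. Controls 4 and 6 had nearly the same correlations with treated library 4 (0.054 and 0.061) and with treated library 6 (-0.283 and -0.263). These values therefore cannot decide whether the numbers pair the libraries. With the replicate block, 5487 genes rose and 1390 fell, 2143 differed between the doses and 448 from RNAi. With it 12 named genes lost their call and none gained a call: cct-8, dpy-13, drh-1, hsp-4, hsp-6, hsp-90, mcm-7, pbs-5, png-1, rab-3, rol-6 and ubh-4. Lower calls went from 52 to 4 for cytosolic ribosomal protein genes and from 8 to 4 for chaperonin and prefoldin genes. Higher calls of furrow and shape collagen genes went from 5 to 0.

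Limits are the 3 libraries a group, the absence of a solvent control, FPKM without counts, and the uncertain scaling between libraries.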

Other observations

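Genes grouped by symbol stem, here called families, also moved as blocks, and some of these genes are in the lists above. The families were chosen after their values were seen and carry no test. Among all genes 42.3% were called higher and 11.1% lower. Of 316 families with at least 6 tested genes, 4 had every member called higher, the calpain family clp (8 genes), tyrosinase family tyr (6), the dyf genes (10, with a median of -0.06 after quantile normalization) and FERM domain family frm (9). Without control 7 this held for tyr and frm, while clp had 7 of 8 and dyf 9 of 10 members higher. Another 5 had every member called lower, 3 of them families of complex I subunits (ndub with 8, nduf and nuo with 6 each), the others the pud genes (6) and the spliceosomal snr genes (7). Complex I genes were already counted with the respiratory chain. Vacuolar ATPase genes (vha) were lower in 16 of 20 cases and nspc genes, which encode short secreted peptides, in 17 of 18. Transthyretin-related genes (ttr) were higher in 40 and lower in 6 of 56 cases, bestrophin channel genes (best) higher in 18 of 26, and tau tubulin kinase-like genes (ttbk) in 7 of 8.

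By annotated gene type, 399 of 726 tested pseudogenes (55.0%) were called higher and 39 (5.37%) lower, while 6840 of 16022 protein-coding genes (42.7%) were higher and 1870 (11.7%) lower. Of 81 long intergenic RNA genes, 31 (38.3%) were higher, below the share of all genes, and 3 lower, with a median of -0.25 after quantile normalization. The table of FPKM lists 114 genes at 0 in all 3 controls and above 1 FPKM in all 3 treated libraries, and 5 genes the other way round. Several of the largest changes were in genes known by sequence names alone. The rises of B0507.8, F26F2.3 and T26H5.9 were 7.70, 7.20 and 7.12 on the log2 scale, and the log2 fold changes of C14C6.5 and Y40H7A.10 were -5.74 and -5.30; all 5 were chosen after their values were seen.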
